A study of Homo sapiens with 4 samples.

Results

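The genes described here are 27 very long human genes, several of which span common fragile sites: CNTNAP2, CSMD1, CSMD3, PTPRD, MACROD2, LRP1B, CTNNA3, CTNNA2, DLG2, FHIT, WWOX, GRID1, NRXN3, LSAMP, RBFOX1, OPCML, CNTN4, CNTN5, PCDH15, ERBB4, GPC5, GPC6, IMMP2L, MAGI2, AUTS2, SOX5 and EYS. They are 27 of 19819 protein-coding genes of the annotation, were taken as a list of names, and each was represented by its canonical transcript in GENCODE on GRCh37. The deposited table of the series holds 956365 windows of 500 bp, and 3082 of them had their midpoint inside 1 of the 27 transcripts. These transcripts cover 38.5 Mb and 77018 windows. A window present in the table is called listed here. The shortest transcript was that of SOX5, with 420.2 kb, the longest that of CNTNAP2, with 2304 kb, and 21 of the 27 were at least 1 Mb long, so that the name giant genes holds for these transcripts by length. Whether a gene is fragile is not something these windows measure.

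The libraries came from FaDu, a squamous carcinoma line of the human hypopharynx. There was 1 library for each of 4 conditions: normoxia with the scrambled control, normoxia with TET1-si, hypoxia with the scrambled control and hypoxia with TET1-si. Hypoxia meant 1% O2, for 18 h in the scrambled control and for 19 h with TET1-si, and all cells had gone through lentiviral knockdown or its control according to the methods. The titles call the assay hMeDIP-seq, the protocol in the labels names an antibody against 5-methylcytidine and the methods of the paper describe chemical labelling of 5-hydroxymethylcytosine, so that the mark that enriched the DNA is uncertain. The 4 columns of values in the table are named Wu1 to Wu4, match none of the libraries' labels and were not used, so that no comparison between conditions and no read depth is given. The windows carry no expression, and the identity of the line could not be checked against marker genes.

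Common fragile sites are regions of chromosomes that break when replication is slowed. They often lie within very long genes, which replicate late and have few replication origins. Long genes of this kind are mostly intron, are poor in CpG dinucleotides, the main sites of 5-methylcytosine and 5-hydroxymethylcytosine, and many of them encode adhesion and signalling proteins of neurons. FHIT and WWOX, at the best known of these sites, are often broken in carcinomas.

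Giant genes were listed sparsely, and more sparsely than their composition predicted. All autosomal windows together had 35.2 listed windows per 100 kb, and the 27 transcripts had 8.00 per 100 kb. Their windows had a mean of 3.54 CpG sites against 4.97 over the autosomes. The number of listed windows was therefore set against a prediction, which gives each window the rate at which autosomal windows of like CpG number and GC content are listed. The prediction for the 27 transcripts was 8934 windows, against 3082 listed, a ratio of 0.345. A ratio of 1 means as many windows as predicted.

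The sequences below come from listed windows inside introns of PTPRD, CNTN4 and the fragile site gene WWOX. They were chosen for many CpG sites and are not typical listed windows. They are printed from the forward strand of GRCh37 with each CpG in capitals. Each is the 300 base stretch with most CpG sites in a window whose 5 sampled sequences of 50 bases occur once in the genome, and which overlaps no annotated exon and has more CpG sites than the others of its gene and kind. PTPRD and CNTN4 had the highest and the lowest ratio among the genes whose sequence is shown, and sequences of CSMD1 and CSMD3 are not shown. The PTPRD window lies on chromosome 9 from 8858501 to 8859000, 1754 kb from the transcript start, has 24 CpG sites and was listed. The CNTN4 window lies on chromosome 3 from 3080001 to 3080500, 940 kb from the start, has 18 CpG sites, was listed and was the only window of its kind in this gene. The WWOX window lies on chromosome 16 from 79002001 to 79002500, 869 kb from the start, has 21 CpG sites and was listed. The stretches printed run from 8858501 to 8858800 for PTPRD, from 3080089 to 3080388 for CNTN4 and from 79002001 to 79002300 for WWOX.
PTPRD, listed: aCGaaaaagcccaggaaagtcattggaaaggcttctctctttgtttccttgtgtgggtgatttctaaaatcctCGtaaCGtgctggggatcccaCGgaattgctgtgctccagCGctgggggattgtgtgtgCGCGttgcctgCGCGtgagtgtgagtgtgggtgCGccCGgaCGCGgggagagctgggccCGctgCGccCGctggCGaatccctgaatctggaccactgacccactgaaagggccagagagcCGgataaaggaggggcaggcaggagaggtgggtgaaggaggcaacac
CNTN4, listed: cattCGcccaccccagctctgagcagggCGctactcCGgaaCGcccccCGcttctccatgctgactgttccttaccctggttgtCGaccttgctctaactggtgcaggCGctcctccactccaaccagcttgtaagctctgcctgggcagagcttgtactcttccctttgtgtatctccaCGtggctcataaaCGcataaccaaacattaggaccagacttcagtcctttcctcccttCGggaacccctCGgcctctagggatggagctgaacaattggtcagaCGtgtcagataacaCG
WWOX, listed: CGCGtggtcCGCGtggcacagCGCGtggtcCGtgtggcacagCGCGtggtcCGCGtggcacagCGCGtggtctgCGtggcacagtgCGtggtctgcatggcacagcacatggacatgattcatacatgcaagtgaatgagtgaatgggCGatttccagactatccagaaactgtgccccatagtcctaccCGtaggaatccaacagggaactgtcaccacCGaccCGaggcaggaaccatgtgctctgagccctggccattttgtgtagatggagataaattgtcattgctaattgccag

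All of these windows are rich in CpG sites, and their predicted share was 53.4% for PTPRD, 50.1% for CNTN4 and 45.6% for WWOX. Listed windows as a whole had a mean of 5.05 CpG sites in PTPRD, 10.7 in CNTN4 and 7.29 in WWOX. An unlisted intronic window had 36 CpG sites in CNTN4, and another had 22 in FHIT. Within the giant genes, listed windows had a mean of 5.74 CpG sites and unlisted windows 3.45. The corresponding means over all autosomal windows were 8.47 and 4.23. The share of listed windows in the giant genes was higher with more CpG sites up to 9 or 10, where it was 11.7% against 38.8% over the autosomes, and lay between 8.38% and 12.3% beyond that. It lay under the autosomal share in every class. With 2 CpG sites, 2.17% of the windows in giant genes (95% Wilson interval, 1.95 to 2.41, n = 15114) and 7.07% of all autosomal windows were listed. With 7 or 8 CpG sites the shares were 8.74% (7.96 to 9.59, n = 4635) and 31.6%. With 16 to 20 CpG sites they were 8.38% (6.24 to 11.2, n = 489) and 51.7%, and with 21 or more 12.3% (9.24 to 16.3, n = 332) and 43.3%. The intervals cover counting error only and take each window as a separate observation, which adjoining windows are not. A window absent from the table may have had reads, since the name of the table carries a minimum of 20, but whether this is the number of reads a window needed, and in which libraries, was not tested.

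**Figure D1:**
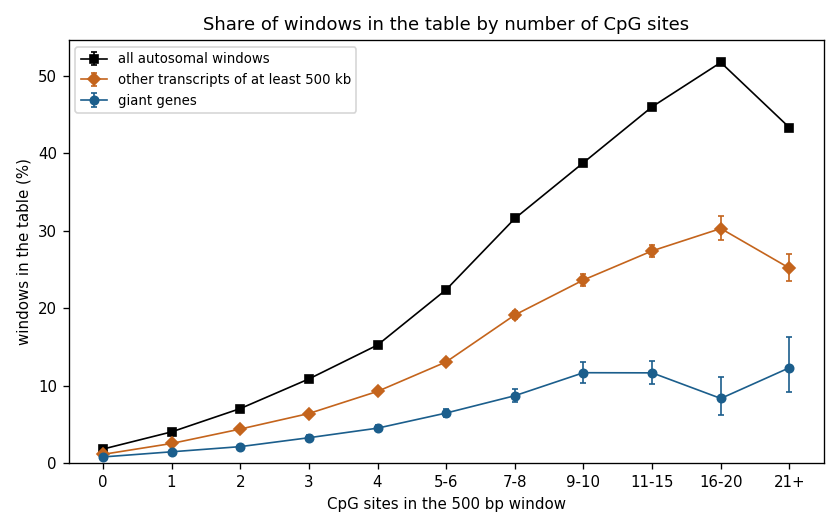
Percent of 500 bp windows present in the table (vertical axis) by the number of CpG sites in the window (horizontal axis), for all autosomal windows (black squares), other transcripts of at least 500 kb (orange diamonds) and the 27 giant genes (blue circles), with 95% Wilson intervals. The giant genes lie lowest in every class, at 2.17% with 2 CpG sites and 8.74% with 7 or 8.

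The ratio was under 0.5 in 21 of the 27 genes and over 1 in 2. Among all 5677 autosomal protein-coding transcripts with at least 100 windows, 19.4% had a ratio under 0.5 and 51.2% a ratio over 1. Long transcripts as a class were lower: of the other 216 autosomal transcripts of at least 500 kb, 43.1% had a ratio under 0.5 and 17.6% a ratio over 1. The median ratio was 0.294 for the 27 genes, 0.585 for these 216 and 1.02 for the 5677. Length went with listing also outside the list, where the median ratio fell from 1.13 in transcripts of 50 to 100 kb to 0.748 at 300 to 500 kb, 0.619 at 500 to 1000 kb and 0.321 in the 27 other transcripts of at least 1 Mb. Of those 27, 17 had a ratio under 0.5 and 0 a ratio over 1. The 21 giant genes of at least 1 Mb had a median of 0.222, against 0.321 in those 27, a smaller gap than that between either set and the 5677. No test of the difference was made.

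**Figure D2:**
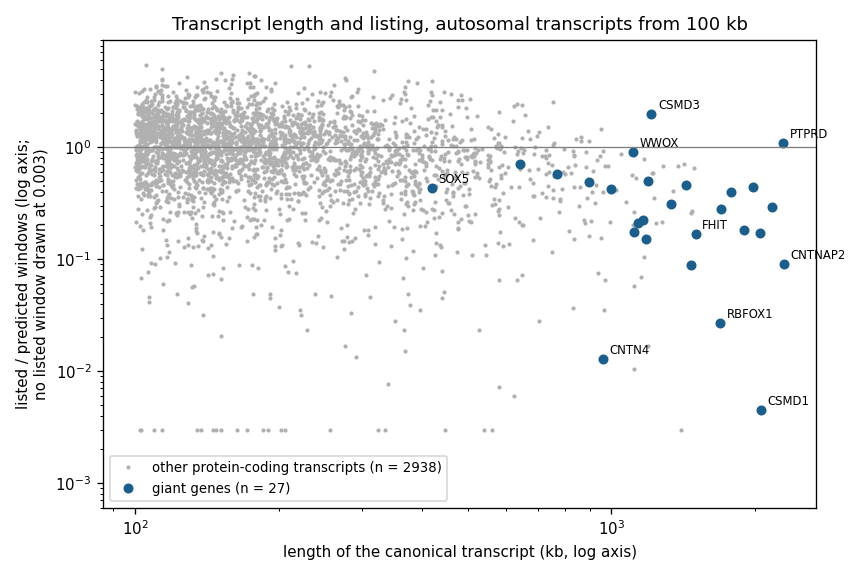
Ratio of listed to predicted windows (vertical log axis) against the length of the canonical transcript (horizontal log axis, kb) for autosomal protein-coding transcripts from 100 kb. Grey points are other transcripts, blue circles the 27 giant genes, and transcripts with no listed window are drawn at 0.003. Most giant genes lie below 1, CSMD3 lies at 1.96 and CSMD1 at 0.00452.

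The 4 genes with an enzymatic or related role had ratios from 0.166 to 0.906. WWOX, an oxidoreductase with WW domains at the fragile site of chromosome 16, lies from 78133551 to 79246564 and had 446 listed windows of 2226, or 40.1 per 100 kb, the densest of the 27 genes. Its ratio was 0.906 (0.833 to 0.984), close to the prediction, which was 492 windows. FHIT, a hydrolase of diadenosine polyphosphates at the fragile site of the short arm of chromosome 3, lies from 59733003 to 61237126 and had 61 listed windows of 3005, or 4.06 per 100 kb. Its ratio was 0.166 (0.130 to 0.213), with 367 windows predicted. The intervals of these best known fragile genes do not overlap. MACROD2, which removes ADP-ribose from proteins, lies on chromosome 20 from 13976162 to 16033842 and had 80 listed windows of 4116, with a ratio of 0.171 (0.138 to 0.212). IMMP2L, a subunit of a peptidase of the inner mitochondrial membrane, lies on chromosome 7 from 110302700 to 111202548 and had 78 listed windows of 1800, with a ratio of 0.490 (0.394 to 0.607). FHIT and MACROD2 did not differ beyond their intervals, and IMMP2L lay between them and WWOX.

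The large membrane proteins held both ends of the range. CSMD1 and CSMD3 encode related transmembrane proteins with CUB and sushi domains and lie on opposite arms of chromosome 8. CSMD1, from 2792883 to 4852436, had 3 listed windows of 4119, where 664 were predicted, a ratio of 0.00452 (0.00154 to 0.0133). CSMD3, from 113235157 to 114449168, had 324 listed windows of 2428, where 165 were predicted, a ratio of 1.96 (1.77 to 2.17). CSMD1 has more CpG sites, with a mean of 5.24 per window against 2.60 in CSMD3, so that the order of the pair is opposite to that of their CpG content. With no prediction CSMD3 falls to 0.759 of the autosomal rate, and with the prediction from its own chromosome it is at 1.248. PTPRD, a receptor tyrosine phosphatase on chromosome 9 from 8314246 to 10613002, had 443 listed windows of 4598 and a ratio of 1.08 (0.987 to 1.18), which does not differ from 1 beyond its interval and which falls under 1 in most of the other settings tried. LRP1B, a receptor of the low density lipoprotein receptor family, had 56 listed windows of 3799 and a ratio of 0.183 (0.141 to 0.237). ERBB4, a receptor tyrosine kinase for neuregulins, had 41 of 2326 and a ratio of 0.222 (0.164 to 0.300).

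Neuronal adhesion genes had ratios from 0.0127 to 0.703, and 6 of the 7 were under 0.5. So were 21 of all 27 giant genes and 17 of the 27 other transcripts of at least 1 Mb. CNTN4 and CNTN5 are contactins, which are anchored to the membrane of neurons. CNTN4, on chromosome 3 from 2140550 to 3099643, had 3 listed windows of 1918, where 236 were predicted, a ratio of 0.0127 (0.00433 to 0.0374). CNTN5 had 70 listed windows of 2676 and a ratio of 0.309 (0.246 to 0.389), above its paralogue beyond both intervals. LSAMP and OPCML are adhesion molecules of the IgLON family. LSAMP had 91 listed windows of 1287 with a ratio of 0.703 (0.576 to 0.855), and OPCML 72 of 2235 with a ratio of 0.175 (0.140 to 0.220). CNTNAP2 and NRXN3 belong to the neurexin superfamily, CNTNAP2 in myelinated axons and NRXN3 at presynaptic terminals. CNTNAP2, the longest of the genes, had 51 listed windows of 4608 with a ratio of 0.0897 (0.0683 to 0.118), and NRXN3 120 of 3396 with a ratio of 0.281 (0.236 to 0.335). PCDH15, a protocadherin of the tip links of hair cells, had 70 of 1997 with a ratio of 0.424 (0.337 to 0.533).

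Of the remaining genes, RBFOX1 had the lowest ratio and GRID1 the highest. RBFOX1, a neuronal and muscle splicing factor on chromosome 16 from 6069025 to 7763342, had 17 listed windows of 3389, where 636 were predicted, a ratio of 0.0267 (0.0167 to 0.0427). WWOX on the other arm of the same chromosome was listed at 40.1 per 100 kb and RBFOX1 at 1.00. AUTS2, a nuclear protein that binds Polycomb complexes, had a ratio of 0.502 (0.440 to 0.572), the closest of the genes above the threshold of 0.5. IMMP2L, at 0.490, was the closest below it. SOX5, a transcription factor, had 30 listed windows of 840 and a ratio of 0.433 (0.305 to 0.613). The glypicans GPC5 and GPC6, cell surface heparan sulphate proteoglycans, are neighbours on chromosome 13, 0.360 Mb apart, and had ratios of 0.0883 (0.0594 to 0.131) and 0.152 (0.110 to 0.209), which overlap. The catenins CTNNA2 and CTNNA3, which link cadherins to actin, had 0.211 (0.163 to 0.271) and 0.400 (0.338 to 0.474). The synaptic scaffolds DLG2 and MAGI2 had 0.294 (0.246 to 0.351) and 0.459 (0.388 to 0.542), and GRID1, a delta-type glutamate receptor subunit, had 0.576 (0.503 to 0.659). EYS, an extracellular protein of photoreceptors, had 142 listed windows of 3974 and a ratio of 0.437 (0.372 to 0.514).

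In order of the ratio, neighbouring genes rarely differed beyond their intervals. The exceptions were CSMD3 above PTPRD, PTPRD above WWOX by a narrow margin, and RBFOX1 below GPC5, while CSMD1 and CNTN4 overlapped each other at the lower end. The intervals take adjoining windows as separate observations, so such a narrow margin does not separate PTPRD from WWOX. Their order turned with CpG number alone, at 0.813 for PTPRD and 0.857 for WWOX. It also turned with no prediction, at 0.548 and 1.14, and held in the other settings tried. WWOX, PTPRD and CSMD3 held 1213 of the 3082 listed windows, or 39.4%, and the ratio of the other 24 genes together was 0.238. Across the 27 genes the ratio had a Spearman correlation of -0.307 with length and of -0.344 with the mean CpG number. The prediction in the ratio is made from CpG number and GC content, so the ratio and the mean CpG number are not separate measures. These correlations are descriptions across genes, which are not replicates and share the same table.

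**Figure D3:**
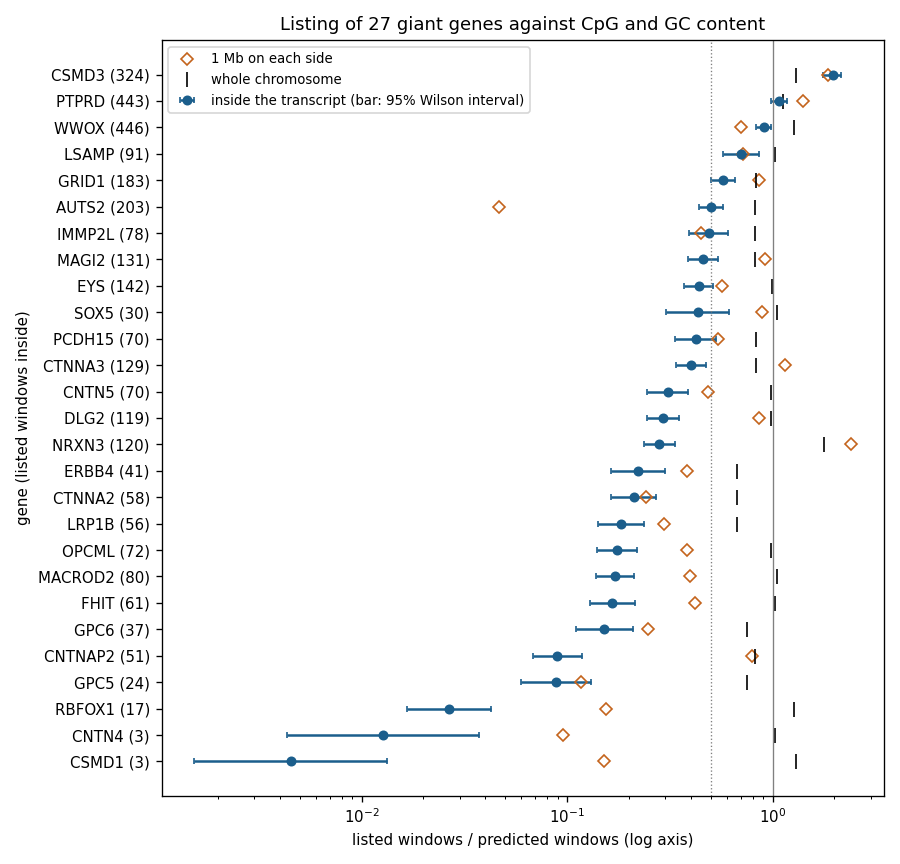
Ratio of listed to predicted windows (horizontal log axis) for each of the 27 genes, with the number of listed windows in brackets. Blue circles are the transcripts with 95% Wilson intervals, orange diamonds the 1 Mb on each side together, black ticks the whole chromosome, and the lines mark 1 and 0.5. All genes but CSMD3 lie left of their chromosome's tick, and AUTS2 lies far right of its flanks.

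Other genes known for their length were taken from a list of names, although the canonical transcript was only 220179 bp long for ESRRG and 429282 bp for DAB1. DCC, a netrin receptor, had 4 listed windows of 2392, with a ratio of 0.0168. The ratio was 0.152 for DSCAM, 0.318 for PDE4D, 0.333 for ESRRG and 0.358 for NBEA. It was 0.563 for DAB1, 0.588 for KCNIP4, 0.777 for CDH13, 0.855 for RORA and 1.19 for DPYD. DMD and IL1RAPL1 lie on chromosome X, where the autosomal prediction need not hold, and had ratios of 0.401 and 0.299.

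The surroundings of the genes were listed more densely than the genes. In the 1 Mb on each side, 9267 windows were listed against 14812 predicted, a ratio of 0.626. GPC5 and GPC6 are 0.360 Mb apart, so the flanks of each include part of the other. The ratio inside was lower than in the flanks for 23 of the 27 genes. The same was found for 153 of the other 216 transcripts of at least 500 kb, or 70.8%, and for 23 of the 27 other transcripts of at least 1 Mb. Inside, 13 genes were lower than both flanks, 12 lay between them and 2 were higher than both, AUTS2 and CSMD3. The position against each flank is not given for other transcripts, so there is no background for these counts. Across the 27 genes the ratio inside and that of the flanks had a Spearman correlation of 0.621, so that the listing of a gene moved with that of its region, and what part the region has in the result was not tested.

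Some genes departed from their surroundings clearly. NRXN3, on chromosome 14, had a ratio of 0.281 between flanks of 2.45 upstream and 2.32 downstream. AUTS2 was the opposite case, with 0.502 inside and 0.0783 and 0.0174 in its flanks. CNTNAP2 had 0.121 upstream and 1.04 downstream, so that it lay at an edge between sparse and dense listing. CSMD1 lay in a sparse region, with 0.0181 upstream and 0.223 downstream, while chromosome 8 as a whole had 1.30. CNTN4 had 0.0195 upstream and 0.156 downstream, and RBFOX1 0.188 and 0.107, on chromosomes with ratios of 1.03 and 1.27. For CSMD3 inside and outside were alike, with 1.88 upstream and 1.86 downstream. For FHIT the flanks had 0.407 and 0.440, above the gene, and for WWOX they had 0.206 and 1.19, below and above the gene.

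Along the transcripts, in the direction of transcription, listing was unevenly spread. Each transcript was divided into 5 parts of equal length. Over all 27 genes the ratio was 0.400 in part 1, 0.298 in part 2, 0.292 in part 3, 0.313 in part 4 and 0.410 in part 5. PTPRD and WWOX held 288 of the 694 listed windows of part 1, and without them the ratios were 0.258, 0.219, 0.259, 0.254 and 0.361, so that part 5 alone stood above the others. The median over the genes was 0.241 in part 1 and 0.376 in part 5. Part 5 had the highest ratio of the gene in 10 genes and the lowest in 1, and part 1 the highest in 7 and the lowest in 7. Transcripts outside the list were not divided in this way, so whether they differ along their length was not tested. PTPRD was dense in part 1, with 148 listed windows and a ratio of 2.18 in part 1, 42 and 0.626 in part 3, and 78 and 0.730 in part 5. WWOX had 140 listed windows in part 1, a ratio of 1.44, and 60 in part 3, a ratio of 0.584. Both genes were thus densest at the 5' end. In EYS the ratio was 0.224 in part 1 and 0.704 in part 5. AUTS2 had 101 of its 203 listed windows in part 5.

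**Figure D4:**
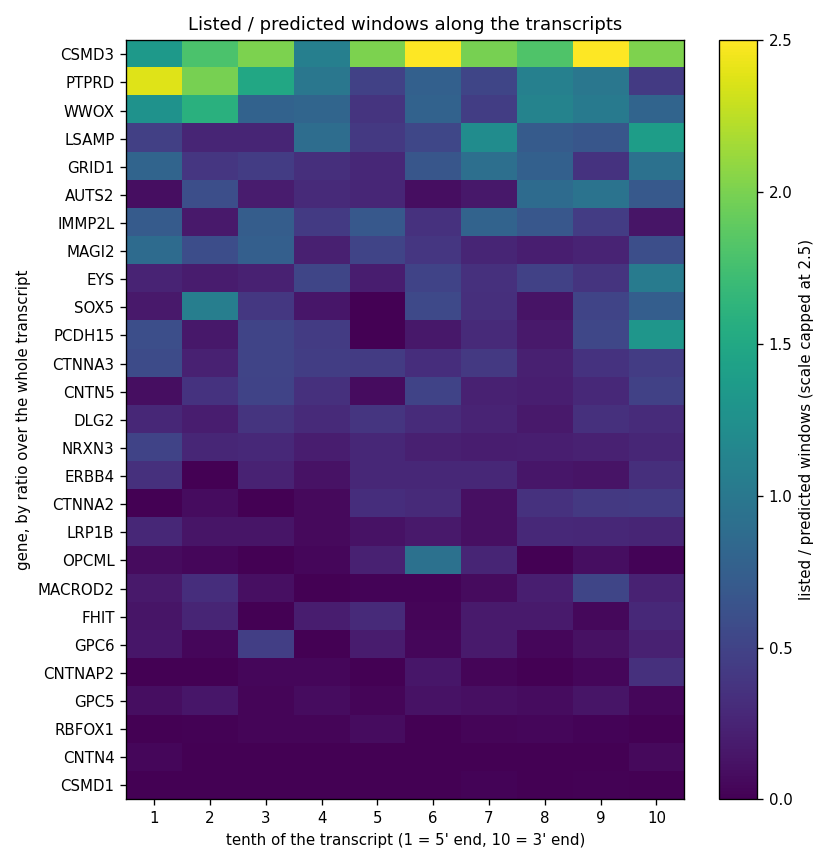
Ratio of listed to predicted windows in each of 10 equal parts of the 27 transcripts, from the 5' end (1) to the 3' end (10), with genes ordered by their ratio and colours capped at 2.5. PTPRD is densest in its leading parts, OPCML in part 6, and CNTN4 and CSMD1 are near 0 throughout.

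In steps of 100 kb from the start, 66 of 386 steps had no listed window. Other long transcripts were not divided into such steps, so there is no background for this count. CSMD1, CNTN4 and RBFOX1 held 35 of the 66, and CNTNAP2 held 15. The prediction for these empty steps ranged from 11.4 to 42.4 windows. In OPCML, 45 of the 72 listed windows fell between 600 and 700 kb from the start, where 36.6 were predicted, while the step after it had none. In CNTNAP2, 27 of the 51 fell between 2200 and 2300 kb, near its 3' end. In CSMD3 no full step had fewer than 14, and in WWOX none fewer than 17, up to 71 between 100 and 200 kb.

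**Figure D5:**
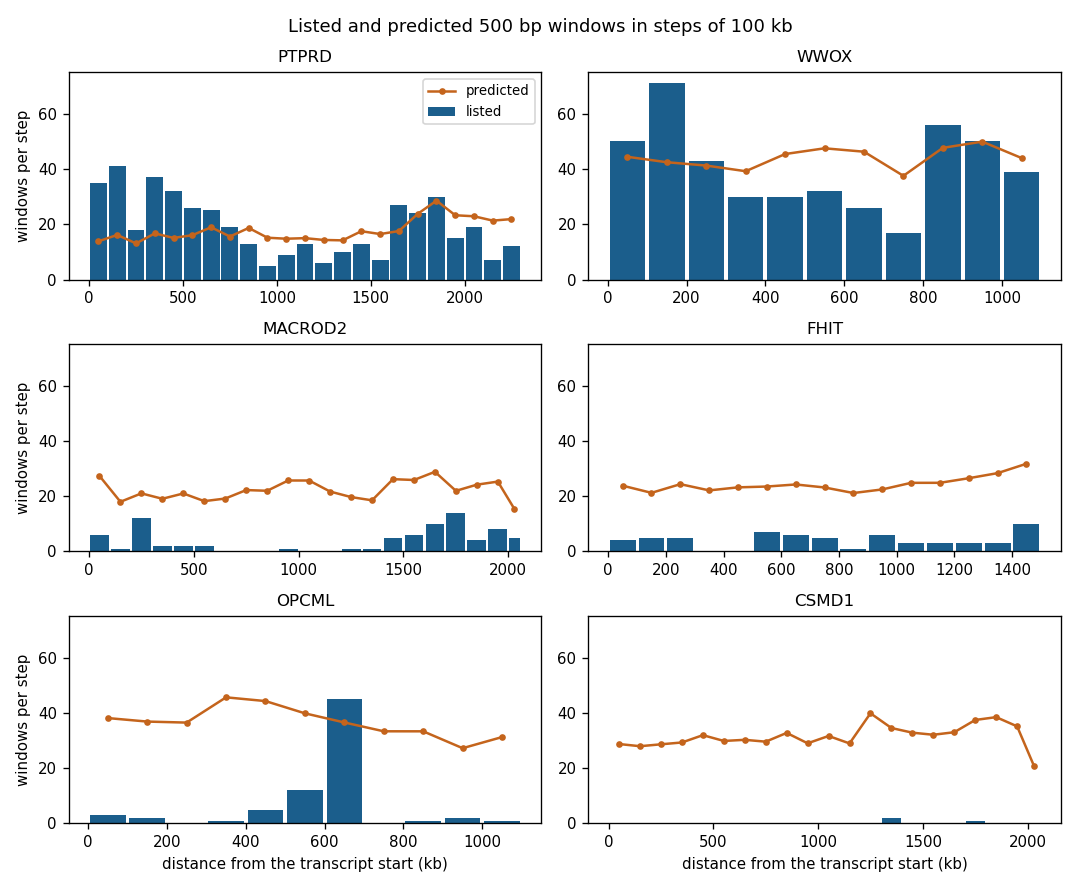
Listed (blue bars) and predicted (orange line) 500 bp windows in each 100 kb step, against the distance from the transcript start in kb, for 6 of the genes on a common vertical scale. The last step of a gene may be shorter. PTPRD and WWOX exceed the prediction near the start, MACROD2 and FHIT have empty stretches inside the gene, OPCML has a single dense step and CSMD1 is almost empty.

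Long stretches without a listed window crossed several of the genes. The longest stretch had a median of 119.5 kb over the 27 genes. Among those of at least 1 Mb it was 141.5 kb, against 139.5 kb in the 27 other transcripts of that length. In CSMD1 the 1302.5 kb from the start of the transcript held no listed window, where 400 were predicted, and the stretch covers 63.2% of the gene, on chromosome 8 from 3550001 to 4852500. In CNTN4 a stretch of 913.5 kb, from 2166501 to 3080000 on chromosome 3, covers 95.2% of the gene. In CNTNAP2 the stretch begins at the transcript start and runs for 635 kb, on chromosome 7 from 145814001 to 146449000, where 127 were predicted. In RBFOX1 it also begins at the start and runs for 316 kb.

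In the fragile genes FHIT and MACROD2 the longest stretch lay inside the gene. This was not particular to them, as internal stretches measured 233 kb in CTNNA2, 224.5 kb in PCDH15 and 219 kb in OPCML. In FHIT 285.5 kb, from 60729001 to 61014500 on chromosome 3 and 223 to 508 kb from the start, held none of 66.0 predicted windows. In MACROD2 338 kb, from 14564001 to 14902000 on chromosome 20 and 588 to 926 kb from the start, held none of 71.7 predicted. IMMP2L had a stretch of 88.5 kb and WWOX one of 32 kb, the shortest of the 27. With only windows counted whose sampled sequences were unique, the stretches of FHIT and MACROD2 were 249 and 302.5 kb.

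At the promoters the giant genes were close to the prediction. In the 3000 bp upstream of the 27 starts, 33 of 162 windows were listed, where 34.0 were predicted, a ratio of 0.972, against 0.345 in the transcripts. The other 216 long transcripts had a ratio of 1.02 there and 0.647 inside, and transcripts with at least 100 windows, the giant genes left out, had 1.41 and 1.13. At least 1 promoter window was listed in 16 of the 27 genes, or 59.3%, against 60.6% of the other long transcripts and 76.5% of the transcripts with at least 100 windows. PTPRD and WWOX each had 5 listed windows of 6, CSMD3 had 4 and AUTS2 had 3. The prediction there was 1.53 for PTPRD, 1.57 for WWOX, 1.65 for CSMD3 and 1.32 for AUTS2. The ratio of 0.972 thus rests in large part on these genes and does not hold for each gene. FHIT, OPCML, CSMD1, CNTN4, RBFOX1 and GPC5 were among the 11 with none. The window that holds the start was listed in 7 of the 27, or 25.9%, against 22.3% of the transcripts with at least 100 windows. Start windows had a mean of 30.7 CpG sites in the giant genes and 43.0 in those transcripts. Their ratios to the prediction were 0.732 and 0.692, both under 1. The 7 genes with a listed start window were CSMD3, PTPRD, IMMP2L, MAGI2, PCDH15, NRXN3 and MACROD2, with from 4 CpG sites in PCDH15 to 50 in PTPRD.

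Nearly all of the giant genes is intron, and so were most of the listed windows. Windows that overlap an exon of the canonical transcript numbered 1086, of which 68 were listed, or 6.26%, and of the 75932 other windows 3014 were listed, or 3.97%. Relative to the prediction the ratios were 0.415 and 0.344. In the other transcripts of at least 500 kb the exon windows had a ratio of 0.712. LRP1B, with 91 exons, had 5 listed of 118 exon windows, and CSMD1, with 70 exons, had 0 of 101. Of the 3082 listed windows, 1910, or 62.0%, had another listed window directly beside them in the transcript. The same share outside the giant genes is not given here, so it cannot be called particular to them. The windows with a listed neighbour were 338 of 446 in WWOX, 17 of 30 in SOX5, 8 of 17 in RBFOX1 and 0 of 3 in CSMD1. The longest run of neighbouring listed windows was 13 in WWOX, 8 in CSMD3 and 7 in GRID1, and no more than 6 in the other genes.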

How the data were processed

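The authors mapped 50-base single-end reads to hg19 with Bowtie 0.12.7, kept unique and monoclonal reads and used MEDIPS, per the methods of the paper and the labels. The deposited table gives the first and last base of 500 bp windows and 4 columns of values. These 4 columns match no sample label, and were not used. The name of the table carries a minimum of 20, and what it was applied to is not given in the sources used here.

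All rows lie on a 500 bp grid within the chromosome lengths of GRCh37, which shares the coordinates of hg19. Autosomal windows with no undetermined base (5368882) formed the background. Each was assigned to a class by CpG number (40 or more in 1 class) and G and C bases (steps of 25), and the rate of listing in its class was its prediction. Classes with under 20 windows took the rate of their CpG number. A window counted as inside a transcript by its midpoint. Canonical transcripts came from GENCODE version 44 lifted to GRCh37, with 19819 protein-coding genes outside chromosome Y. Windows were called unique when 5 sequences of 50 bases from each occurred at 1 place in the genome, on either strand. Ratios were also computed on simulated tables with known factors, and not every gene returned its factor closely.

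The members and lists were chosen with earlier results of these data known. All 27 genes were described by role, with full values for the 4 highest and 4 lowest ratios and the 4 enzymes. Other very long genes came from a list of names, and some of its genes and some sequences are not reported here. Since the lowest and the highest ratio were on a chromosome whose sequence is not printed, sequences were taken from the next genes, and those of WWOX and the listed CNTN4 window were added after the values were seen. Alternatives were CpG number alone, no prediction, predictions from transcripts or from the own chromosome, unique windows, whole windows, whole genes and other length and flank limits. No test was made, since each condition has 1 library. Python 3.11.15, NumPy 2.4.6, pandas 2.3.3, Numba 0.67.0 and Matplotlib 3.10.9 were used.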

Additional observations from a re-analysis of the deposited data

How the results depend on the processing

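The ratio over the 27 genes was 0.345, and stayed under 1 in all alternatives tried. It was 0.294 with CpG number alone, 0.228 with no prediction, 0.289 with the prediction from protein-coding transcripts, 0.327 with unique windows and a prediction from a sample of them, and 0.238 without CSMD3, PTPRD and WWOX. The number of genes under 0.5 was between 18 and 23. For single genes, 156 of 216 values stayed within the interval of the main value. All 27 did so with whole windows and with whole genes, and 25 with unique windows under either prediction. Fewer did so where the prediction itself was changed. The number was 18 with the prediction from protein-coding transcripts, 15 with CpG number alone, 14 with the own chromosome and 5 with no prediction. The ratio of PTPRD crossed 1 to 0.813 with CpG number alone, 0.548 with no prediction, 0.883 with the prediction from transcripts, 0.946 with that from its own chromosome, and 0.956 and 0.966 with unique windows and a prediction from a sample or from all of them. With no prediction WWOX rose to 1.14 and CSMD3 fell to 0.759. The median of the giant genes was 0.503 of that of other long transcripts, and 0.692 of it with 1 Mb as the limit. That limit leaves 21 giant genes and 27 other transcripts. The 5' part of the transcripts, part 1 of 5, stood at 0.974 of part 5, at 0.843 with no prediction and at 0.716 without PTPRD and WWOX. The ratio inside was 0.551 of that in the flanks, 0.600 with flanks of 500 kb, 0.459 with flanks as long as the transcript, 0.466 with no prediction and 0.510 with CpG number as the only property. The cause of these shifts was not tested. The prediction from all unique windows and the sets without named genes were chosen once the values had been seen. No paired analysis was possible because the columns carry no replicate numbers and every condition is a single library. Depth per library is not analysed here, so that an unlisted window cannot be told from a window with few reads. The copy number of the DNA in this line was not analysed either, so what part it has in the listing was not tested.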
